A study of Homo sapiens with 8 samples.

Results

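The 10 BCL2 family genes described here were BCL2L11, BMF, BBC3, PMAIP1, BAD, BAX, BAK1, MCL1, BCL2L1 and BCL2. They were taken by gene name from a table of 38148 genes, and all 10 had a row. The table held mRNA-seq values of HT29 cells, a BRAF-mutant human colorectal cancer line, left untreated or given 1 μM selumetinib for 24 h. Selumetinib inhibits MEK, the kinase that activates ERK1/2. Glyoxal-fixed cells of both treatments were sorted by antibody stain for cyclin B1, the product of CCNB1, which builds up towards mitosis. This gave a CCNB1-negative and a CCNB1-positive fraction. Poly(A) mRNA was then sequenced from 2 libraries in each of the 4 groups, which all came from this 1 cell line. Nothing in the labels says that the replicates were separate cultures, so p-values measure only the spread between these libraries.

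BCL2 family proteins decide whether the outer mitochondrial membrane is opened, the committing step of the intrinsic apoptosis pathway. The effectors BAX and BAK1 form the pores. The pro-survival proteins MCL1, BCL2L1 (BCL-XL) and BCL2 hold the effectors and their activators in check. The BH3-only proteins BIM (gene BCL2L11), BMF, PUMA (BBC3), NOXA (PMAIP1) and BAD bind the pro-survival proteins, and some of them activate the effectors directly. ERK1/2 is known to restrain several BH3-only proteins, in part by phosphorylation of BIM and BAD, which an mRNA measurement does not see. BRAF-mutant colorectal cells respond to MEK inhibitors mainly with G1 arrest.

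The labels of every library disagree, as its title names one treatment and one fraction and its short description names the other treatment and the other fraction. Groups here follow the descriptions, which are also the column names of the table. By the descriptions, CCNB1 mRNA was higher in the CCNB1-positive fraction by 2.09 log2 units in untreated cells and by 5.08 in selumetinib-treated cells, and by the titles it would be lower there. By the descriptions 13 of 15 ERK output genes were lower after selumetinib in the CCNB1-negative and 12 of 15 in the CCNB1-positive fraction, and by the titles these genes would be higher. If the titles are right, each response to selumetinib given here belongs to the other fraction and has the opposite sign. Each fraction difference then belongs to the other treatment, also with the opposite sign, and the difference between the responses is the same.

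The deposited values are log2 of reads per gene, with every library scaled to the largest one, and reads on genes ranged from 12696860 to 23916160 per library. Mitochondrial genes took 4.44 to 7.80% of reads in untreated and 11.9 to 14.8% in treated libraries, and the nuclear RNA MALAT1 took 0.303 to 0.386% and 2.01 to 4.42%. All 8 markers of colon epithelium were above 1 RPM (reads scaled to library size) in every library, with a summed level of 10770 to 12060 RPM in untreated and 5418 to 9160 RPM in treated libraries. The 6 markers of other cell types summed to 1.31 to 2.09 RPM in untreated and 2.76 to 6.06 RPM in treated libraries. VIM, PTPRC, COL1A2 and CD3E each stood at 0 reads in 1 or more libraries, and COL1A1, the only one of the 6 with enough reads to test, was higher after treatment by 1.81 and 2.19 log2 units. An alternative fit scaled libraries to nuclear reads without MALAT1. In it, the selumetinib response of BCL2L11 in CCNB1-negative cells no longer passed the test below (limma adjusted p = 0.133). Nor did those of MCL1 and BCL2L1 in CCNB1-positive cells (adjusted p = 0.0573 and 0.106), while that of BAD there did (0.43, adjusted p = 0.0194). The part of the marker shifts in the results below was not tested. In bulk samples, fewer cells that express a gene and less of its RNA per cell cannot be told apart.

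The promoters of the 4 BH3-only genes whose mRNA level changed in at least 1 selumetinib comparison are shown, from 250 bases before to 50 after the start site in the RefSeq set (GRCh38.p14). A window was found for 9 of the 10 genes. Each line runs 5′ to 3′ along the gene's strand, at chr15:40108830-40109129 (minus strand) for BMF, chr18:59899746-59900045 (plus) for PMAIP1, chr19:47232618-47232917 (minus) for BBC3 and chr2:111120664-111120963 (plus) for BCL2L11. Capitals mark every match, on either strand, to 6 short motifs.
BMF: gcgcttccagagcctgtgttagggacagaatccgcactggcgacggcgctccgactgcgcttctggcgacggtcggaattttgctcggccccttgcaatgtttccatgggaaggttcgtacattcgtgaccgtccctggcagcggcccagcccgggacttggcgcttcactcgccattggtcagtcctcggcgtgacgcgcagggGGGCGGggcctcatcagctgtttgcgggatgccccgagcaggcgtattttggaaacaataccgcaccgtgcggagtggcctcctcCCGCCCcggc
PMAIP1: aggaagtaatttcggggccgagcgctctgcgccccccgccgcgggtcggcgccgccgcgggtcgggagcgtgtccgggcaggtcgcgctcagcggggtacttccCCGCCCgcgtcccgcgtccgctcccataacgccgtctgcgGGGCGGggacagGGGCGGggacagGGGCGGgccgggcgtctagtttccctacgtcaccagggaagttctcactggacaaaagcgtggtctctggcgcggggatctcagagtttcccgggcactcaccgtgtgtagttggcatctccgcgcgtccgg
BBC3: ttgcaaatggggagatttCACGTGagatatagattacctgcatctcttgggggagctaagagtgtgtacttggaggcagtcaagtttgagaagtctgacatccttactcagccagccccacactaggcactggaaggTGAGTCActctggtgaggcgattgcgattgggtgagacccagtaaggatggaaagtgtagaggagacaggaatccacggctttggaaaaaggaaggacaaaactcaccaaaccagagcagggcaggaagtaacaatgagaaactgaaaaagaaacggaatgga
BCL2L11: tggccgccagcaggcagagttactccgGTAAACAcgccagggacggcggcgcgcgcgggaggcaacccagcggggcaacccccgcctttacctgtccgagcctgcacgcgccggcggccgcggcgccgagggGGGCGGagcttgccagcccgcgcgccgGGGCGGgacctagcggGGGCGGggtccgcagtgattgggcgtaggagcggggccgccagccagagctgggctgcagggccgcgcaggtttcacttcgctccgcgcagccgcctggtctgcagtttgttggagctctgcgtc

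The motifs were the AP-1 site TGANTCA, present in 7.71% of 35116 such windows, the forkhead (FOXO) site TGTTTAC in 3.42%, the ETS site CCGGAAG in 10.3%, the E-box CACGTG in 7.26%, the GC box GGGCGG in 45% and the TATA box TATAAA in 11.5%. No match overlapped another in the 4 sequences. The BMF sequence held 2 GC boxes and none of the other 5 motifs, and a second BMF window in the set held none of the 6. The PMAIP1 sequence held 4 GC boxes. The BBC3 sequence held an E-box and an AP-1 site and no GC box, and that of BCL2L11 held a forkhead site, read on the minus strand, and 3 GC boxes. Of the other genes, the BAX window held 4 E-boxes and 2 GC boxes, and the first BCL2L1 window an ETS site and 2 TATA boxes. The BAK1 window held 2 GC boxes, and each BAD window and the second BCL2L1 window held a GC box. That of BCL2 held no match. A match is a string of letters and not a measured binding site.

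In CCNB1-negative cells, 6 of the 9 members that could be tested changed with selumetinib. BMF rose, and BCL2L11, PMAIP1, BAX, BAK1 and MCL1 fell. The test was limma on the deposited log2 values of the 14219 genes that averaged 1 RPM or more, with Benjamini-Hochberg adjustment and a threshold of 0.05. Across all genes tested, 38.2% were higher and 35.8% lower by the same rule, so a change of this kind was common. In CCNB1-positive cells 6 of 9 changed as well, with BMF and BBC3 higher and BAX, BAK1, MCL1 and BCL2L1 lower, where 38% of all genes were higher and 27.3% lower. The median log2 fold change of the members was -0.51 for the CCNB1-negative and -0.11 for the CCNB1-positive fraction, against 0.05 and 0.17 over all genes. BCL2 averaged below 1 RPM and did not enter this test.

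**Figure D1:**
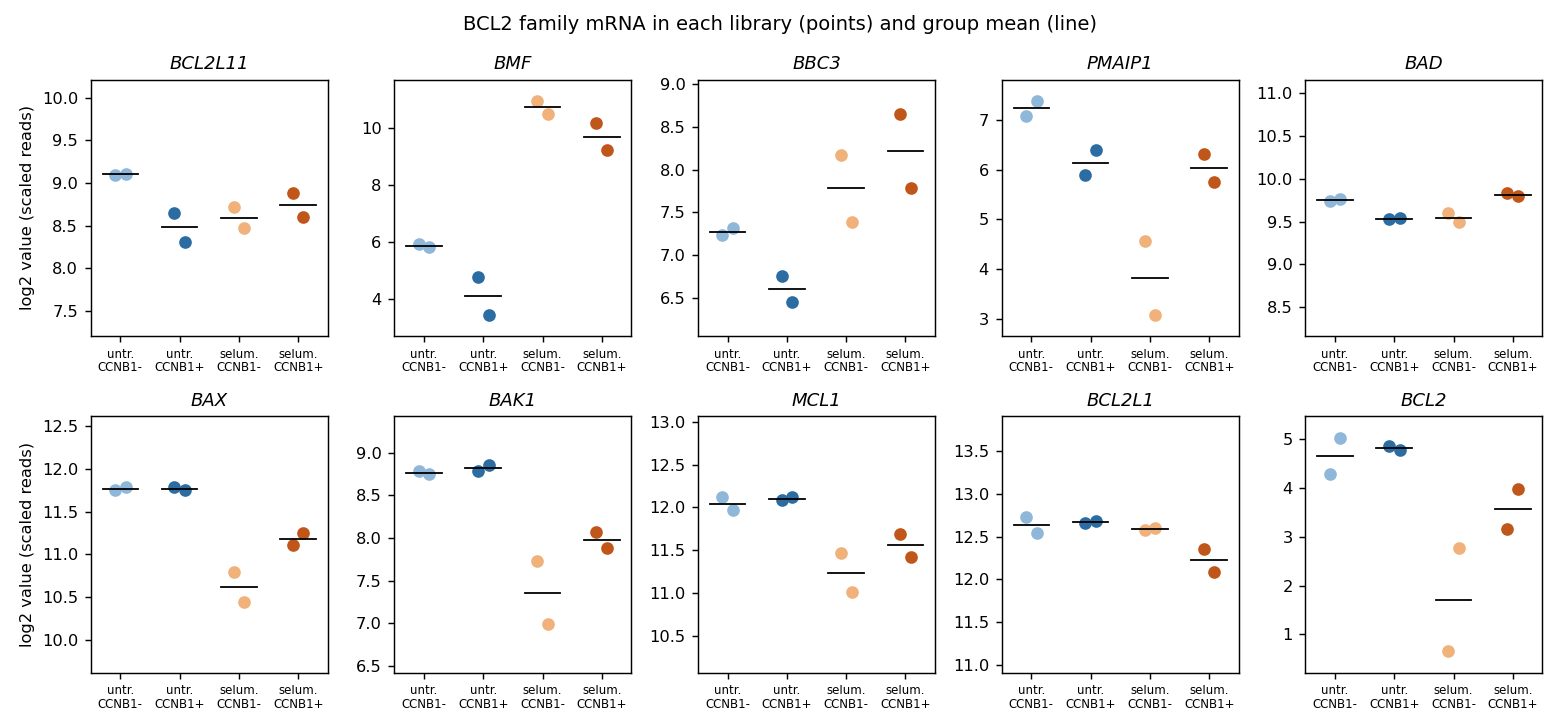
Deposited log2 value (reads scaled to the largest library, vertical axes differ between panels) of each of the 10 genes in each of the 8 libraries, with points for libraries and a line for each group's mean. BMF stands at 3.45 to 5.92 in untreated and 9.23 to 10.95 in selumetinib-treated libraries, and PMAIP1 is lowest in the treated CCNB1-negative libraries.

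BMF, a BH3-only protein that is held on the cytoskeleton by dynein light chain, had by far the largest change of the members. Its gene lies at chr15:40087890-40108892 on the minus strand (GRCh38). In CCNB1-negative cells its log2 values were 5.92 and 5.82 untreated and 10.95 and 10.50 after selumetinib. These correspond to 56 and 45 reads against 1261 and 854. The treated libraries lay far above the untreated ones with no overlap, a difference of 4.85 ± 0.37 (log2, SE, n = 2 against 2), or 28.9-fold, with a limma adjusted p of 8.33e-08.

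In CCNB1-positive cells the log2 values of BMF were 4.75 and 3.45 untreated and 10.17 and 9.23 treated, from 27 and 10 reads against 1023 and 380. The difference was 5.59 ± 0.37, or 48.3-fold, with a limma adjusted p of 1.32e-07. By size of rise, BMF ranked 35 of 14219 genes in the CCNB1-negative and 10 in the CCNB1-positive fraction. The rise passed under all 17 alternatives in which BMF was tested, between 4.57 and 5.08 for CCNB1-negative cells and between 4.75 and 6.24 for CCNB1-positive cells. The antisense gene BMF-AS1, which overlaps 8.46% of the exon bases of BMF, had 0 reads in every library.

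BBC3 (chr19:47220822-47232766, minus strand) encodes PUMA, a BH3-only protein that binds all pro-survival members and is a classical p53 target. Its log2 values in CCNB1-positive cells were 6.75 and 6.45 untreated and 8.65 and 7.78 treated. Both treated libraries were above both untreated ones, and BBC3 rose by 1.61 ± 0.31, or 3.06-fold (limma adjusted p = 4.14e-04). In CCNB1-negative cells the values were 7.23 and 7.31 untreated and 8.17 and 7.39 treated. The treated pair was again higher without overlap, but the treated libraries were far apart from each other, and the difference of 0.51 (95% interval -0.15 to 1.16) did not pass the test (adjusted p = 0.148). Without treated CCNB1-negative replicate 2 it was 0.89 and passed (adjusted p = 0.0338, range over the alternatives 0.0338 to 0.969).

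PMAIP1 (chr18:59899948-59904306, plus strand) encodes NOXA, a BH3-only protein that binds MCL1 and promotes its degradation. In CCNB1-negative cells its log2 values were 7.08 and 7.38 untreated and 4.56 and 3.08 treated, from 125 and 132 reads against 15 and 5. The treated libraries were the lowest of the 8. PMAIP1 fell by 3.41 ± 0.44, a 10.6-fold change (limma adjusted p = 9.93e-06). At 5 to 15 reads the treated level itself is known only roughly.

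In CCNB1-positive cells the log2 values of PMAIP1 were 5.88 and 6.40 untreated and 6.32 and 5.74 treated, from 59 and 77 reads against 71 and 34. These overlapped, and the difference was -0.11 with a 95% interval from -1.07 to 0.85 (adjusted p = 0.839). It turned to 0.04 when libraries were scaled to nuclear reads without MALAT1, and was -1.18 (adjusted p = 0.0484, range over the alternatives 0.0484 to 0.992) after quantile normalization. The response of PMAIP1 differed between the fractions, by 3.30 ± 0.63 on the log2 scale (95% interval 1.95 to 4.65, limma adjusted p = 0.00514). CCNB1 mRNA itself fell by 4.27 in the CCNB1-negative and 1.27 in the CCNB1-positive fraction, an interaction of 2.99. Cells sorted into 1 fraction may thus differ in cell cycle stage between treatments. The part of this in the PMAIP1 values was not tested.

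BCL2L11 (chr2:111119378-111168445, plus strand) encodes BIM, which binds every pro-survival protein and activates BAX and BAK1. In CCNB1-negative cells its log2 values were 9.10 and 9.11 untreated and 8.72 and 8.47 treated. The groups did not overlap, and BCL2L11 fell by 0.51 ± 0.19, a 1.42-fold change (limma adjusted p = 0.0243). In CCNB1-positive cells the values were 8.65 and 8.31 untreated and 8.89 and 8.60 treated. These overlapped, with a difference of 0.26 (95% interval -0.14 to 0.66, adjusted p = 0.234). The fall in CCNB1-negative cells no longer passed when untreated replicate 1, untreated replicate 2 or treated replicate 2 of that fraction was left out, at -0.51, -0.50 and -0.38 with adjusted p of 0.074, 0.0825 and 0.13. It was also lost with nuclear scaling, at -0.33 (adjusted p = 0.133), and over all alternatives the adjusted p ran from 0.0094 to 0.133.

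The antisense gene MIR4435-2HG overlaps 10.8% of the exon bases of BCL2L11, and the strand handling of the table is not given in the sources used here. MIR4435-2HG had 599 to 881 reads in untreated libraries, 228 and 214 in treated CCNB1-negative and 558 and 557 in treated CCNB1-positive libraries. Its part in the values of BCL2L11, which had 209 to 506 reads, was not tested.

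BAD (chr11:64269830-64284704, minus strand), the BH3-only protein that survival signalling silences by phosphorylation, stayed within a narrow range of 9.49 to 9.83 log2 units over all 8 libraries. Its values were 9.74 and 9.76 untreated and 9.60 and 9.49 treated in CCNB1-negative cells, and 9.53 and 9.54 untreated and 9.83 and 9.80 treated in CCNB1-positive cells. The groups did not overlap in either fraction and were ordered in opposite directions. Neither difference passed, at -0.21 (95% interval -0.52 to 0.10, limma adjusted p = 0.202) and 0.28 (-0.03 to 0.59, adjusted p = 0.101). The difference in CCNB1-positive cells did pass when scaled to nuclear reads without MALAT1 (0.43, adjusted p = 0.0194). It also passed with log2 of RPM plus 0.1 (0.38, adjusted p = 0.0291). The 2 responses differed by 0.49 (adjusted p = 0.198). GPR137, on the opposite strand over 23.7% of the exon bases of BAD, had 289 to 510 reads, against 425 to 808 for BAD.

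Both pore-forming effectors were lower after selumetinib in both fractions. BAX (chr19:48954815-48961798, plus strand) had log2 values of 11.75 and 11.78 untreated and 10.79 and 10.45 treated in CCNB1-negative cells. In CCNB1-positive cells they were 11.78 and 11.76 untreated and 11.10 and 11.24 treated. Every treated library was below every untreated one, and BAX fell by 1.15 ± 0.15, a 2.22-fold change, in CCNB1-negative cells and by 0.60 ± 0.15, or 1.51-fold, in CCNB1-positive cells (limma adjusted p = 1.01e-05 and 0.00325).

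BAK1 (chr6:33572547-33580293, minus strand) had log2 values of 8.78 and 8.75 untreated and 7.73 and 6.99 treated in CCNB1-negative cells, and of 8.78 and 8.86 untreated and 8.07 and 7.88 treated in CCNB1-positive cells. It fell by 1.41 ± 0.23 and by 0.84 ± 0.23, changes of 2.65-fold and 1.80-fold (limma adjusted p = 6.80e-05 and 0.00487). As for BAX, the treated and untreated libraries did not overlap. BAK1 has pseudogene copies, and reads shared with them could not be told apart. Both effectors kept their calls in both fractions under every alternative except a 2-fold requirement, which neither met in CCNB1-positive cells.

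Among the pro-survival genes, MCL1 (chr1:150574551-150579738, minus strand), whose short-lived protein restrains BAK1, fell in both fractions. Its log2 values were 12.12 and 11.97 untreated and 11.46 and 11.01 treated in CCNB1-negative cells. In CCNB1-positive cells they were 12.08 and 12.12 untreated and 11.69 and 11.43 treated. The groups did not overlap, with falls of 0.81 ± 0.17 (1.75-fold, limma adjusted p = 6.31e-04) and 0.55 ± 0.17 (1.46-fold, adjusted p = 0.0113). The fall in CCNB1-positive cells did not pass without untreated CCNB1-positive replicate 2 (-0.53) or treated CCNB1-positive replicate 2 (-0.42). Nor did it pass with quantile normalization (-0.27, limma adjusted p = 0.21) or scaled to nuclear reads without MALAT1 (-0.40, adjusted p = 0.0573). A threshold of 0.01 and a 2-fold requirement were not met either. The call held under 12 of 18 alternatives, over which the adjusted p ran from 0.00122 to 0.21.

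BCL2L1 (chr20:31664452-31723989, minus strand), which encodes BCL-XL, had log2 values of 12.72 and 12.55 untreated and 12.58 and 12.60 treated in CCNB1-negative cells. These overlapped, with a difference of -0.05 (95% interval -0.38 to 0.28, adjusted p = 0.785), which turned to 0.39 (adjusted p = 0.0343, range over the alternatives 0.0343 to 0.861) under quantile normalization. In CCNB1-positive cells the values were 12.66 and 12.68 untreated and 12.36 and 12.09 treated. BCL2L1 fell there by 0.44 ± 0.15, or 1.36-fold (limma adjusted p = 0.0197), and the call was lost under 9 of 18 alternatives, among them quantile normalization (-0.06, adjusted p = 0.752, range over the alternatives 0.00247 to 0.752) and leaving out untreated CCNB1-positive replicate 1 or 2 or treated CCNB1-positive replicate 2 (-0.46, -0.43 and -0.31). ABALON, antisense over 41.3% of the exon bases of BCL2L1, had 0 to 4 reads against 2772 to 6469 for BCL2L1.

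BCL2 (chr18:63123346-63320128, minus strand), the founding pro-survival member, was almost absent from this line, with 18, 26, 29 and 25 reads in the untreated and 1, 4, 8 and 10 in the treated libraries. Pooled over replicates, 44 reads became 5 in CCNB1-negative cells, a ratio of levels of 0.175 (exact 95% interval 0.0541 to 0.44). In CCNB1-positive cells 54 reads became 18, a ratio of 0.449 (0.248 to 0.778). The untreated libraries did not overlap with the treated ones. These intervals cover counting error only, and reads carry no molecular identifiers. In a fit with no filter on low values BCL2 differed by -2.95 ± 0.89 in CCNB1-negative cells, which passed (limma adjusted p = 0.0129). In CCNB1-positive cells it differed by -1.24 ± 0.89 and did not pass (adjusted p = 0.277).

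**Figure D2:**
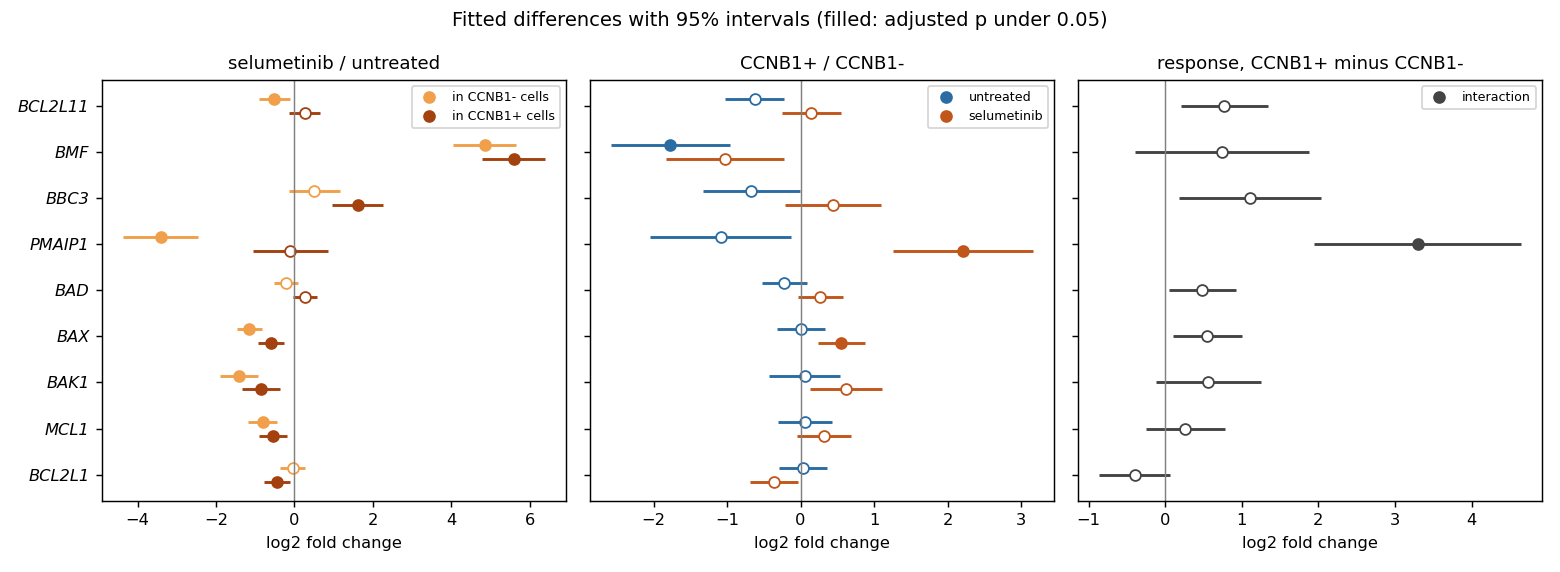
Log2 fold changes of the 9 tested genes with 95% intervals, for selumetinib against untreated in each fraction (left), CCNB1-positive against CCNB1-negative in each treatment (middle) and the difference between the 2 responses (right). Filled points passed at an adjusted p under 0.05, and PMAIP1 is the only filled point on the right, at 3.30.

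Because the median over all genes shifted by 0.17 in CCNB1-positive cells, changes were also read relative to it. BMF then stood at 4.80 in the CCNB1-negative and 5.43 in the CCNB1-positive fraction, and BBC3 at 0.46 and 1.45. The falls of PMAIP1 (-3.46), BAX (-1.20), BAK1 (-1.46) and MCL1 (-0.86) in CCNB1-negative cells were slightly larger than before. In CCNB1-positive cells BAX stood at -0.76, BAK1 at -1.01, MCL1 at -0.72 and BCL2L1 at -0.61.

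Between fractions of untreated cells, 1 of the 9 (BMF) passed in the fit without a block, against 1.36% of all genes that were higher in the CCNB1-positive fraction and 1.51% that were lower. BMF was lower in CCNB1-positive cells by 1.77 ± 0.37, or 3.41-fold (limma adjusted p = 0.0181). The call rested on 10 to 56 reads, and without untreated CCNB1-positive replicate 2 the difference was -1.12 (adjusted p = 0.137). It was also lost without untreated CCNB1-negative replicate 1 (-1.72, adjusted p = 0.0666) or 2 (-1.82, adjusted p = 0.0589), and ranged in adjusted p from 4.87e-05 to 0.158 over the alternatives. PMAIP1, BCL2L11, BBC3 and BAD differed by -1.09, -0.62, -0.67 and -0.22 in CCNB1-positive cells. None of these differences passed in the fit without a block (limma adjusted p = 0.28, 0.11, 0.359 and 0.587). With the 2 fractions of the same treatment and replicate number as a block, PMAIP1, BCL2L11 and BBC3 passed (adjusted p = 0.0285, 0.00416 and 0.0189). No label states that such fractions were pairs. The effectors and the tested pro-survival genes differed by 0.06 or less.

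Under selumetinib, PMAIP1 and BAX were higher in CCNB1-positive than in CCNB1-negative cells in the fit without a block. Of all genes, 13.8% were higher and 7.87% lower there. PMAIP1 differed by 2.21 ± 0.44, or 4.63-fold (limma adjusted p = 0.0035), and BAX by 0.56 ± 0.15, with an adjusted p of 0.0187. The BAX call was lost without treated CCNB1-negative replicate 2 (0.38, adjusted p = 0.143) or treated CCNB1-positive replicate 1 (0.63, adjusted p = 0.0646) or 2 (0.49, adjusted p = 0.122), with a range of 5.07e-04 to 0.143 over the alternatives. BMF was lower by 1.03 ± 0.37 in CCNB1-positive cells with no overlap but did not pass (adjusted p = 0.0645). It passed under 9 of the 18 alternatives, over which the difference ran from -1.50 to -0.56. Among the 9 were the fits without untreated CCNB1-positive replicate 1 or 2, libraries outside this comparison. There the difference stayed at -1.03 and only the pooled spread changed. BAK1 was higher by 0.62 (adjusted p = 0.0662), and passed at 0.98 without treated CCNB1-negative replicate 1 (adjusted p = 0.00489), as did MCL1 at 0.55 (adjusted p = 0.0267). Over the alternatives the adjusted p ran from 0.00392 to 0.486 for BAK1 and from 0.011 to 0.77 for MCL1.

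Of the 9 members, 1 (PMAIP1) passed the test of a different response between fractions in this fit, which has no block for replicate numbers, where 4.99% of all genes responded with a higher and 0.345% with a lower log2 fold change in CCNB1-positive cells. In size this interaction ranked 16 of 14219 among positive ones. For BMF the interaction was 0.74 (95% interval -0.40 to 1.88, adjusted p = 0.456). It was 1.11 for BBC3, 0.77 for BCL2L11, 0.55 for BAX and 0.56 for BAK1 (adjusted p = 0.168, 0.124, 0.162 and 0.343). With the 2 fractions of the same treatment and replicate number as a block, BBC3, BCL2L11, BAX and BAD passed (limma adjusted p = 0.00403, 0.00588, 0.0131 and 0.0209). BCL2L1 had the only negative value, at -0.40 (adjusted p = 0.322). Without treated CCNB1-negative replicate 1, BBC3, BAX and BAK1 passed too, at 1.50, 0.72 and 0.93 (adjusted p = 0.0479, 0.032 and 0.0405, with ranges over the alternatives of 0.00403 to 0.53, 0.0131 to 0.414 and 0.0405 to 0.795).

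To compare levels between genes, RPM was divided by the kilobases of merged exons. These join the exons of every annotated transcript of a gene, so they can be longer than the mRNA present. For MCL1 they form 1 block of 5188 bases over its whole locus. The order of genes rests on this divisor, and other lengths were not tested. Per length, BCL2L1 was the most abundant member in all 4 groups, followed by BAX, MCL1 and BAD. In untreated CCNB1-negative cells these stood at 63.5 ± 6.1, 56.3 ± 0.44, 34.1 ± 2.7 and 21.1 ± 0.031 RPM per kb (SD, n = 2), with no overlap between neighbours. BAK1 came next at 8.21 ± 0.21, then BCL2L11 (3.41), PMAIP1 (2.88), BBC3 (2.03), BMF (0.45) and BCL2 (0.0864). In untreated CCNB1-positive cells the order was the same, with overlap between PMAIP1 and BBC3 and between BMF and BCL2.

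After selumetinib BMF moved up from rank 9 to rank 5. It stood at 14.5 ± 3 RPM per kb in CCNB1-negative cells, below BAD at 20.1 ± 0.76 and above BAK1 at 3.52 ± 1.2. In CCNB1-positive cells it stood at 7.17 ± 3.2, and overlapped BAK1 at 5.1 ± 0.41. PMAIP1 had rank 9 in both treated groups, at 0.335 ± 0.22 and 1.36 ± 0.37. In treated CCNB1-negative cells MCL1 and BAD overlapped, as did BAK1, BBC3 and BCL2L11.

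Summed over the 5 BH3-only genes, the level per length was 29.6, 30.2, 23.4 and 22.8 RPM per kb in the untreated libraries (CCNB1-negative, then CCNB1-positive) and 44.7, 37, 43.5 and 35.2 in the treated ones. BMF made up 0.366 to 1.58% of that sum in untreated libraries, 33.4 and 37% in treated CCNB1-negative and 14.1 and 21.6% in treated CCNB1-positive libraries. Without BMF, the sums were 29.1, 29.8, 23.2 and 22.7 RPM per kb in the untreated and 28.1, 24.7, 34 and 30.3 in the treated libraries. In CCNB1-negative cells the treated sums without BMF lay below both untreated ones, and in CCNB1-positive cells above both.

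The 3 pro-survival genes summed to 91.4 to 103.8 RPM per kb in untreated and 70.7 to 91.1 in treated libraries, and MCL1 made up 34.7 to 35.4% and 21.2 to 33.7% of it. The effectors summed to 64.1 to 65.3 in untreated and 27.7 to 47 in treated libraries. The ratio of BH3-only to pro-survival mRNA was 0.285, 0.33, 0.235 and 0.226 in untreated libraries and 0.491, 0.425, 0.517 and 0.498 in treated ones. All 4 treated libraries were above all 4 untreated ones. The ratio includes BMF, without which the BH3-only sum was lower after treatment in CCNB1-negative cells. BAD made up 70 to 79.1% of the BH3-only sum in untreated and 46.3 to 66.6% in treated libraries. These sums and ratios rest on the merged exon lengths, weight each mRNA by abundance alone, and say nothing of protein.

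**Figure D3:**
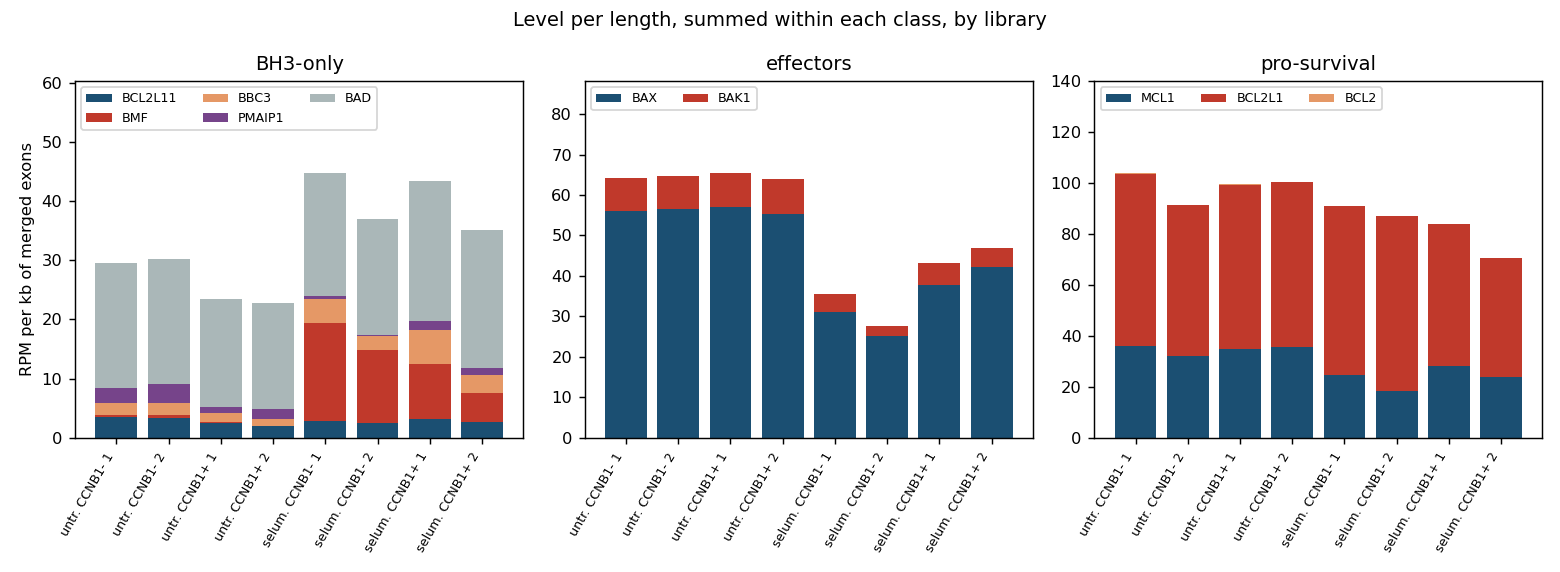
Level per length (RPM per kb of merged exons) in each of the 8 libraries, stacked by gene within the BH3-only, effector and pro-survival classes. BH3-only sums are 22.8 to 30.2 in untreated and 35.2 to 44.7 in treated libraries, and the BMF segment goes from 0.366 to 1.58% of the stack to 14.1 to 37%, while effector sums go from 64.1 to 65.3 down to 27.7 to 47.

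The wider pathway was read from 5 lists of other apoptosis genes. By the same test, 38.2% of all genes were higher and 35.8% lower in CCNB1-negative cells. In CCNB1-positive cells these shares were 38% and 27.3%. Counts near these shares are not particular to a list. Where a pair of values is given for a gene, CCNB1-negative cells come first. Of 13 other BCL2 family and related genes, 9 could be tested, and 3 were higher and 4 lower in each fraction. HRK, BCL2A1, BCL2L10 and BNIP3 were below 1 RPM on average. BIK, a BH3-only protein of the endoplasmic reticulum, rose by 2.39 ± 0.29 in the CCNB1-negative and 2.12 ± 0.29 in the CCNB1-positive fraction, from 28 to 38 reads per untreated library to 91 to 166 per treated library. BCL2L15 rose by 2.23 and 2.13. BCL2L12 fell by 1.98 and 0.69, and differed between fractions in its response by 1.29 ± 0.23 (limma adjusted p = 0.00276). BOK, an effector-like protein, fell by 1.16 and 0.65. BID, a BH3-only protein cleaved by caspase 8, fell by 0.92 and 0.76.

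Of the 9 genes of the apoptosome and caspases, 3 were higher and 4 lower in CCNB1-negative cells, and 3 higher and 1 lower in CCNB1-positive cells. CYCS encodes cytochrome c, which leaves mitochondria once BAX and BAK1 open the membrane. It fell by 3.14 ± 0.18 and 1.99 ± 0.18 (limma adjusted p = 8.07e-09 and 1.32e-06), and its response differed between fractions by 1.15 ± 0.26 (adjusted p = 0.0174). APAF1, the scaffold of the apoptosome, rose by 0.94 and 1.14. CASP10, an initiator caspase, rose by 1.24 and 1.63, and CASP2 fell by 1.01 in CCNB1-negative cells, with -0.26 in CCNB1-positive cells (adjusted p = 0.239).

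Of 13 genes for inhibitor of apoptosis proteins (IAPs), their antagonists and mitochondrial channels, 3 were higher and 8 lower in CCNB1-negative cells, and 5 higher and 7 lower in CCNB1-positive cells. BIRC7 (livin), an IAP, rose by 3.77 ± 0.38 and 3.55 ± 0.38, from 11 to 20 reads per untreated library to 100 to 211 per treated library. XIAP rose by 0.95 and 0.58. BIRC3 rose by 1.24 in CCNB1-positive cells, with -0.05 in CCNB1-negative cells (adjusted p = 0.909). BIRC5 (survivin), an IAP family member of the mitotic machinery, fell by 3.54 ± 0.15 and 0.53 ± 0.15, and its response differed between fractions by 3.01 ± 0.21 (limma adjusted p = 4.01e-06). VDAC2, the outer-membrane channel that recruits BAK1, fell 4.29-fold and 2.73-fold, and VDAC1 fell by 1.92 and 1.23.

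Of the 12 death receptor genes, 10 could be tested (FASLG and TNFRSF10C could not), with 4 higher and 4 lower in CCNB1-negative and 4 higher and 3 lower in CCNB1-positive cells. TNFSF10, the ligand TRAIL, rose by 2.63 ± 0.24 and 2.93 ± 0.24 (limma adjusted p = 3.96e-07 and 5.86e-07). CFLAR, the caspase 8 inhibitor, rose by 0.70 and 0.82. FAS fell by 1.61 in CCNB1-negative cells, with -0.40 in CCNB1-positive cells (adjusted p = 0.358), and its adaptor FADD fell by 1.45 and 0.96. The receptor TNFRSF10A fell by 1.35 and 1.50, and TNFRSF1A by 1.39 and 1.20.

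Of 14 regulators of the member genes or their proteins, 6 were higher in each fraction, with 5 lower in CCNB1-negative and 4 lower in CCNB1-positive cells. FOXO3, a transcription factor known to act on BCL2L11 and BBC3, rose by 2.61 ± 0.15 and 2.40 ± 0.15 (limma adjusted p = 8.74e-09 and 9.78e-08). DDIT3 (CHOP) rose by 1.17 and 1.71, and BTRC, a ubiquitin ligase subunit, by 1.81 and 0.97. E2F1, which can activate BH3-only genes including PMAIP1, fell by 3.65 ± 0.15 and 0.49 ± 0.15, and its response differed between fractions by 3.15 ± 0.21 (adjusted p = 3.94e-06). DYNLL2, the dynein light chain that anchors BMF, fell by 1.57 and 0.84, and DYNLL1, that of BIM, by 1.20 and 0.71.

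As a check on the drug, 13 of 15 ERK output genes were lower and 2 higher in CCNB1-negative cells, and 12 lower and 1 higher in CCNB1-positive cells. The ETS factors ETV4 and ETV5 fell by 3.10 and 2.95 in CCNB1-negative cells and by 2.34 and 2.02 in CCNB1-positive cells. EGR1, an immediate early gene, went the other way and rose by 1.17 and 1.58, and SPRED2 rose by 0.72 in CCNB1-negative cells, with 0.45 in CCNB1-positive cells (adjusted p = 0.0645).

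**Figure D4:**
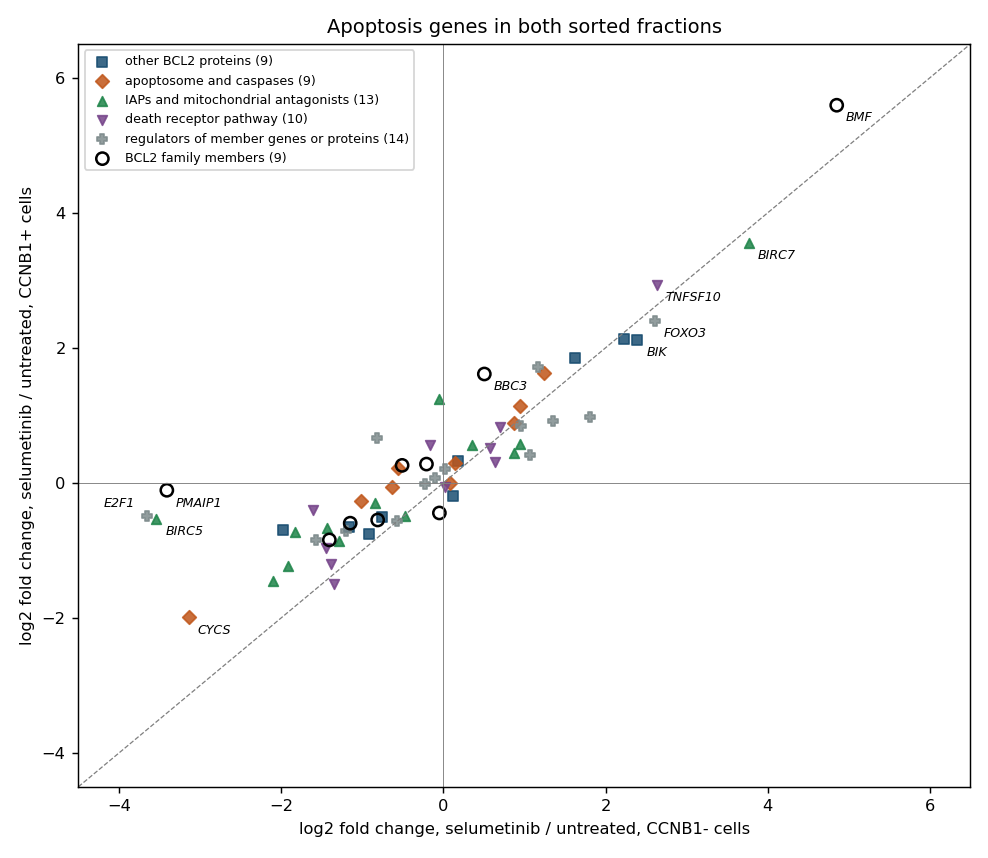
Log2 fold change with selumetinib in CCNB1-negative cells (horizontal) against CCNB1-positive cells (vertical) for the 9 tested BCL2 family members (open circles) and the tested genes of 5 other apoptosis lists, with the line of equal change dashed. BMF lies at 4.85 and 5.59, and PMAIP1 (-3.41 and -0.11), BIRC5 and E2F1 lie far above the line at the left.

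Over the 8 libraries, the gene whose log2 values were most like those of each member was taken from 12480 genes with a symbol, as a description without a test. For BMF it was PAQR6, at Pearson r = 0.998 (n = 8), and 1713 genes reached 0.95. For BAX, BAK1 and MCL1 it was TSR3 (0.996), CFL1 (0.998) and DDA1 (0.997), with 1686, 1477 and 904 genes at 0.95 or more. These high counts go with a treatment difference that a large share of genes carried. PMAIP1 was most like LINC00857 (0.996), with 56 genes at 0.95 or more, and BBC3 most like C4orf33 (0.979), with 26. BCL2L11 was most like DPM3 (0.974), the 1 gene that reached 0.95. For BAD and BCL2L1 none did, the nearest being CHAC1 (0.948) and LRRC20 (0.927).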

How the data were processed

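mRNA-seq of the 8 HT29 libraries was used. Per the labels and the study's methods, HISAT2 2.1.0 aligned the reads to GRCh38 after trimming (Trim Galore 0.5.0). SeqMonk 1.47.0 then gave the deposited log2 values, which the authors normalized to total read count. The authors' own test was DESeq2. In the deposited log2 table, 2 to the power of each value gave whole reads (within 0.01) for 100% of genes with reads once 1 constant per library was removed, and genes without reads stood at the log2 of 0.9 reads plus that constant. Depth was the sum of these reads. Annotation release and strand handling are not given in the sources used here. Replicates differed by more than sampling noise (chi-square per gene 17.3 to 33.5) and were kept separate.

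limma 3.58.1 (R 4.3.3) was fitted to the deposited values of the genes averaging 1 RPM or more, with a mean-variance trend, 1 coefficient per group and Benjamini-Hochberg adjustment over 14219 genes. The log2 branch of a plan that also allowed counts was used. Tables and figures used Python 3.11.15, pandas 2.3.3, scipy 1.17.1 and matplotlib 3.10.9, and the fit was tested on simulated data. Exon lengths and antisense overlaps came from GENCODE release 44, in which 99.3% of gene identifiers were found, and promoters from RefSeq.

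The members and lists were chosen with earlier results of these data known. Named genes are the members, CCNB1, the up to 2 largest rises and falls per list and fraction that passed, untested list genes by name and the gene most like each member. Interaction values and the antisense partners MIR4435-2HG, GPR137, BMF-AS1 and ABALON were named after their values were seen, as were mitochondrial genes and MALAT1. Alternatives were other thresholds, filters, scalings and a pseudocount of 0.1 RPM, limma-voom on recovered reads, 2 blocks, fitting only the groups compared, and leaving out each library.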

Additional observations from a re-analysis of the deposited data

Results flagged for a closer look

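The selumetinib response of PMAIP1 (NOXA) differed between the sorted fractions, by 3.3 on the log2 scale (limma adjusted p = 0.00514 for the interaction). The fall of 3.41 in CCNB1-negative cells stood against a difference of -0.11 in CCNB1-positive cells. Both treated CCNB1-negative libraries (log2 values 4.56 and 3.08) were below both treated CCNB1-positive libraries (6.32 and 5.74). The interaction lay between 2.56 and 4.04 and passed under all 17 alternatives in which PMAIP1 was tested, with an adjusted p of 3.69e-05 to 0.0285. The treated CCNB1-negative values rest on 15 and 5 reads. The sorting marker CCNB1 had an interaction of 2.99, with a fall of 4.27 in the CCNB1-negative fraction. Whether that fraction held the same cell cycle stages in both treatments was not tested.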

How the results depend on the processing

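Of 813 member values under an alternative, 728 kept their direction and side of the threshold, 37 lost and 32 gained a call and 16 changed sign. Some could not change sign, as the alternative changed only the threshold or left out a library outside the comparison. The 728 are thus no measure of robustness. The causes were not tested.

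Members called with selumetinib in CCNB1-positive cells went from 6 to 2, and list genes from 53 to 27, when a 2-fold change was required. Leaving out 1 library gave 4 to 6 there and 5 to 6 in CCNB1-negative cells. Between untreated fractions the 1 member called became 0 at an adjusted p under 0.01, with a filter of 10 RPM (BMF not tested), with quantile normalization, with limma-voom and with only the groups compared, 4 when the 2 fractions of the same treatment and replicate number formed a block (fraction pair block), and 0 to 1 without 1 library. Where it was 0, 1 to 4 members had an unadjusted p under 0.05 by limma. Under selumetinib the 2 called became 1 at 0.01, with a 2-fold requirement and with a filter of 10 RPM, 5 with quantile normalization, 7 with the fraction pair block, and 1 to 4 without 1 library. List genes there went from 20 to 10 at 0.01 and 9 at 2-fold. For the interaction the 1 member called became 0 at 10 RPM (PMAIP1 not tested, 3 members with an unadjusted limma p under 0.05), 5 with the fraction pair block and 1 to 4 without 1 library, and the 5 list genes became 3 at 0.01.

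The labels share replicate numbers but do not say that they mark a shared culture. Correlations of replicate deviations were 0.352 and 0.428 between the fractions of 1 treatment and -0.0875 to 0.0821 otherwise. Replicate numbers thus went together between the fractions of 1 treatment, though no label states why. The fits without a block leave this out. In the fraction comparisons and the interaction, fewer members passed in them than with the fraction pair block. With the replicate block, members called between treated fractions went from 2 to 4, adding BMF (adjusted p = 0.0181) and BAK1 (0.0475), and no other count moved by over 1.5 times. The fraction pair block added calls for BCL2L11, BBC3 and PMAIP1 between untreated fractions (adjusted p = 0.00416, 0.0189 and 0.0285), for BMF, BAD, BAK1, MCL1 and BCL2L1 between treated fractions (0.00161, 0.0426, 0.00392, 0.011 and 0.00812) and for BCL2L11, BBC3, BAD and BAX in the interaction (0.00588, 0.00403, 0.0209 and 0.0131).

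Signs changed as follows. BCL2L1 in CCNB1-negative cells with selumetinib was 0.39 with quantile normalization, 0.13 with nuclear scaling, 0.0907 with log2(RPM + 0.1) and -0.138 to 0.0414 without 1 library. In CCNB1-positive cells BCL2L11 was -0.0504 with quantile normalization, and PMAIP1 was 0.0376 with nuclear scaling and -0.398 to 0.18 without 1 library. Between untreated fractions BAX was -0.0482, -0.00107 and -0.00137 with quantile normalization, nuclear scaling and log2(RPM + 0.1) and -0.0123 to 0.0205 without 1 library. BCL2L1 was -0.0143 with quantile normalization and -0.0537 to 0.126 without 1 library, and MCL1 was -0.0125 to 0.132 without 1 library.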
